A study of Mus musculus with 2 samples.

Results

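The peaks described here are the KMT2D ChIP-seq peaks that lay inside the body of a protein-coding gene, more than 2 kb and at most 20 kb from the nearest end of any protein-coding gene. A peak belonged to the set when its summit, the point of highest signal, fell inside the RefSeq span of at least 1 protein-coding gene and met these distance limits. The rule used position only, so signal played no part in it. It took 638 of the 3706 peaks on chromosomes 1 to 19, X and Y, or 17.2% (Wilson 95% interval 16 to 18.5). The chromatin came from HT22, an immortalised mouse hippocampal cell line, with a wild-type genotype and labelled as a wild-type clone, grown to 70% confluency. Chromatin precipitated with an anti-KMT2D antibody (1 library) was set against input chromatin without precipitation (1 library). Cells with a deleted SET domain, which the series also describes, were not analysed here. Neither library had a replicate. Intervals therefore cover counting error only, and differences between sets of peaks are described without a test. A peak list does not measure expression, so the cell type label was not checked against marker genes.

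KMT2D, also called MLL4, is a histone methyltransferase that adds a single methyl group to lysine 4 of histone H3, the mark that precedes the activation of enhancers. It acts in a complex with WDR5, RBBP5, ASH2L, DPY30, UTX and PTIP, and mutations in the human gene cause Kabuki syndrome, in which intellectual disability is common. Gene bodies hold many enhancers within introns as well as internal start sites from which shorter transcripts of the same gene begin.

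Some of the peaks lay at internal starts in the RefSeq start table used here, which does not cover every gene. Most lay away from any start listed in it. The windows before 6 internal starts are shown because the summit of a peak lay in each of them, and because they span the base composition seen at such starts. They are the 250 bases before the listed start, read 5′ to 3′ on the strand of the gene, from RefSeq on GRCm38.p6, the same build as mm10. Capitals mark matches, on either strand, to the letters GGAATG of TEAD factors, GGGCGG of SP/KLF factors or TGACTCA of AP-1. The 6 were chosen after their values were seen.
Adcy7, chr8:88282742-88282991, plus strand, summit 142 bases before the start: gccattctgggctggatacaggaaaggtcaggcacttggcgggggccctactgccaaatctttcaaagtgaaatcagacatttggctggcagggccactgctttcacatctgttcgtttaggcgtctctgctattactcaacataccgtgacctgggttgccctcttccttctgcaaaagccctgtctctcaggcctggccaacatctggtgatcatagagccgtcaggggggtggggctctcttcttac
Ahnak2, chr12:112795743-112795992, minus strand, summit 232 bases before the start: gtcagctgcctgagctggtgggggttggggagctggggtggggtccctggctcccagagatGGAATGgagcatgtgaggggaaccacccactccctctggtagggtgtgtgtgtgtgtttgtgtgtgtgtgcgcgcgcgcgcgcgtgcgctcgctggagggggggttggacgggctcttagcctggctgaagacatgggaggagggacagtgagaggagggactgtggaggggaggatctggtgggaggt
Sh2d6, chr6:72520037-72520286, minus strand, summit 45 bases before the start: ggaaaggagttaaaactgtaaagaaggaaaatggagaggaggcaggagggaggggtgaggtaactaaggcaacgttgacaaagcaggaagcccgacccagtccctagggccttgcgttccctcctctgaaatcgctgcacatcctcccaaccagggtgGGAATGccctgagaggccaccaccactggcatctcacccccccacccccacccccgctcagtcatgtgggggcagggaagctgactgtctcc
Osgin1, chr8:119436897-119437146, plus strand, summit 43 bases before the start: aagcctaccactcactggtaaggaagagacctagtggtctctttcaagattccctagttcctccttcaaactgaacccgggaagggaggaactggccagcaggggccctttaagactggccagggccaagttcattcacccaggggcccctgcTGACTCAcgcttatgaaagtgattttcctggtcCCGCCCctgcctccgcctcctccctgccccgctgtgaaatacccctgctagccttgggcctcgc
Ddr1, chr17:35700591-35700840, minus strand, summit 199 bases before the start: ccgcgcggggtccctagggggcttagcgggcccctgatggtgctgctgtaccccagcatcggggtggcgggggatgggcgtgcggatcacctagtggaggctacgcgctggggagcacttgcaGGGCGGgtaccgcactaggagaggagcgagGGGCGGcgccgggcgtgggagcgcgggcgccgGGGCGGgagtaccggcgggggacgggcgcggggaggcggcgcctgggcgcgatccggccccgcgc
Ppp1cc, chr5:122158025-122158274, plus strand, summit 118 bases before the start: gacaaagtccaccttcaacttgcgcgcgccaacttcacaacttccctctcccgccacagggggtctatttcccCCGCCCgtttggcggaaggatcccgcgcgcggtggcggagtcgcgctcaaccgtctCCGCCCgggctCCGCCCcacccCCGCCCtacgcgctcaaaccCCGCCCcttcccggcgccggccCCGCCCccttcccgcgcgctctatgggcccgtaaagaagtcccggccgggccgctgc

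The 6 windows differ in composition and in peak height. Adcy7, an adenylyl cyclase, had the highest peak of them, at 10.6-fold, with 54% G and C and none of the searched motifs. Ahnak2, a large scaffold protein, followed with 9.29-fold and 1 TEAD match, and Sh2d6, an SH2 domain protein, with 5.75-fold and 1 TEAD match. The peak of Osgin1, an oxidative stress-induced growth inhibitor, reached 3.69-fold over a window with 1 AP-1 and 1 SP/KLF match. The windows richest in G and C belonged to Ddr1, a collagen receptor tyrosine kinase, with 78%, 3 SP/KLF matches and a 3.79-fold peak, and to Ppp1cc, a catalytic subunit of protein phosphatase 1, with 72%, 6 SP/KLF matches and a 3.59-fold peak.

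Signal in the gene-body peaks was close to that of other peaks away from gene ends. The fold, given by the authors' peak caller, is the ChIP pileup at the summit over the background taken from the input. Its median was 4.66, with quartiles of 3.69 and 5.93 and a full range of 1.34 to 17.4. The median was 4.79 for the 575 gene-body peaks over 20 kb from an end, 4.85 for the 640 intergenic peaks 2 to 20 kb away, 4.73 for the 847 intergenic peaks beyond 20 kb and 3.72 for the 1006 peaks within 2 kb of a gene end. Against all other peaks together, gene ends included, the ratio of medians was 1.05. Interquartile ranges of the 4 sets away from ends overlapped widely. The fragments behind a fold can be solved from the deposited fold and p-value, and this succeeded for all 638 peaks. The median gene-body summit carried 32 ChIP fragments over a background of 6.05, against 29 over 5.19 for deeper gene-body peaks and 32 over 5.71 for intergenic peaks at the same distance. Folds were below 3 in 54 of the peaks and above 10 in 17.

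**Figure D1:**
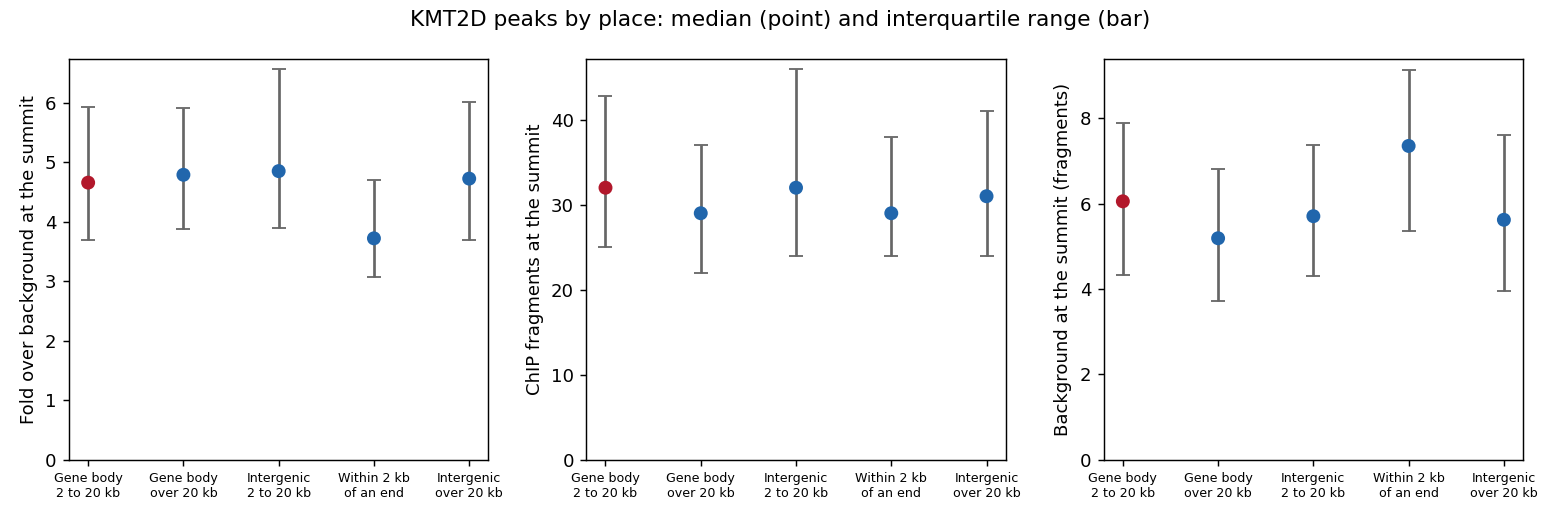
Median (point) and interquartile range (bar) of the fold, the ChIP fragments and the background fragments at the summit, for gene-body peaks 2 to 20 kb from a gene end (red) and the other 4 places of peaks (blue). The red medians of 4.66, 32 and 6.05 lie near those of the other peaks away from ends, while peaks within 2 kb of an end have the lowest median fold, 3.72, and the highest median background, 7.35.

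For their room, the peaks were denser than those deeper in genes. The sequence that meets the rule measured 367 Mb, which gives 1.74 peaks per Mb, against 0.986 per Mb in gene bodies beyond 20 kb, 1.91 per Mb in intergenic sequence at 2 to 20 kb and 6.77 per Mb within 2 kb of ends. With gene starts and finishes pooled, density was lower at each greater distance from the end. It was 1.97 peaks per Mb at 2 to 5 kb (188 peaks), 1.77 at 5 to 10 kb (210), 1.68 at 10 to 15 kb (145) and 1.43 at 15 to 20 kb (95). Taken alone, the finish side showed no such fall, as given below. Median folds over these 4 ranges ran between 4.53 and 4.86 with no steady order. Just inside the lower limit lay peaks in Tmem44, a membrane protein, at 2004 bp with 8.31-fold, and Trp53bp1, which encodes the DNA damage protein 53BP1, at 2008 bp with 4.0-fold. Just outside it were Anxa9, an annexin, with 6.28-fold at 1981 bp from an end of another gene, LOC115489748, and Plekho1 at 1964 bp with 3.30-fold. Within the set, the nearest end belonged to a gene other than the host in 61 peaks. At the upper limit, peaks in Nav1, a neuron navigator, at 19881 bp with 6.43-fold, and Myo10, an unconventional myosin of filopodia, at 19875 bp with 3.11-fold were inside. Those in Cdh1, which encodes E-cadherin, at 20017 bp with 3.44-fold, and Cpe, carboxypeptidase E, at 20029 bp with 5.88-fold were outside.

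Of the 20 highest peaks, all but 1 in Trim7 (227 bp) and 1 in Ephb3 (294 bp) were wider than the median of the set, 298 bp. Npas4, the activity-regulated transcription factor of neurons, led with 17.4-fold (95% Poisson interval 14.8 to 20.4), from 152 ChIP fragments over a background of 7.78, at chr19:4992782-4993252 and 8668 bp from the gene's nearer end. Fam71f1 had 13.2-fold (10.2 to 16.8; 64 fragments over 3.91) and 2310022B05Rik 12.9-fold (10.7 to 15.3; 123 fragments over 8.65). The similar folds of this last pair rest on ChIP pileups that differ widely, because the backgrounds differ as well. The Npas4 summit lay 3050 bp before a listed internal start of Npas4. The Fam71f1 summit and the 12-fold Trim7 summit lay 1691 and 3020 bp before a listed start of their own gene.

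Several of the 20 highest peaks lay in genes of signalling. Gng7, a G protein gamma subunit, had 11.6-fold (9.04 to 14.8; 66 fragments over 4.76). Adcy7, whose window opens the sequences above, had 74 fragments over 6.05. Pik3cb, the beta catalytic subunit of PI3-kinase, had 11.0-fold (8.10 to 14.6; 46 over 3.28). Receptors were Tnfrsf8, which encodes CD30, with 10.6-fold (8.01 to 13.7; 55 over 4.30), Axl, the receptor tyrosine kinase for GAS6, with 10.3-fold (7.99 to 13.0; 67 over 5.62), and Ephb3, an ephrin receptor, with 10.2-fold (7.64 to 13.3; 52 over 4.21). Every one of these intervals overlaps the others, so no order among them is given. Ptpa, an activator of protein phosphatase 2A, had 11.0-fold (8.81 to 13.5; 86 over 6.92), with its summit 63 bp after a listed internal start.

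Others of the 20 were regulators of transcription, the cytoskeleton and ubiquitin. Atoh8, a basic helix-loop-helix factor, had 11.4-fold (9.47 to 13.6; 119 fragments over 9.51), and Zzz3, a subunit of the ATAC acetyltransferase complex, 10.7-fold (8.13 to 13.8; 56 over 4.32). Amotl2, an angiomotin that binds YAP, had 10.5-fold (7.97 to 13.6; 55 over 4.32). Synpo, the actin-associated protein synaptopodin of dendritic spines, had 9.96-fold (7.48 to 13.0; 52 over 4.32). Cuedc1, with a ubiquitin-binding CUE domain, had 11.6-fold over a peak 1020 bp wide, and Eva1c had 11.0-fold over 720 bp. Niban2 with 9.95-fold and Spg20, which encodes spartin, with 9.89-fold closed the 20. The Niban2 summit lay 105 bp from the listed start of Gm13523, a lncRNA gene on the opposite strand.

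The deepest peaks by significance were not all high in fold. By −log10 q, Npas4 (131) and 3 neighbouring predicted genes of chromosome 6, Gm40369 (136), Gm40365 (136) and Gm40363 (127), stood highest. Folds in the 3 predicted genes were 8.22, 7.28 and 7.60, from 256, 280 and 253 ChIP fragments over backgrounds of 30.3, 37.6 and 32.4, against the median background of 6.05 in the set. The Gm40369 summit lay on a copy of Rn4.5s, a 4.5S RNA gene. Backgrounds above 20 fragments occurred in 11 of the 638 peaks. The other 8 of these sat at 1.34- to 2.46-fold, 5 of them in Tmem267 and 1 each in Sfi1, Zc3h7a and Smo, which were named after their values were seen. The part of the high input in these peaks was not tested. Cenpo, which encodes a centromere protein, held the widest peak of the set, 2368 bp with 7.41-fold and 125 fragments over 16, among the 10 highest by −log10 q.

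**Figure D2:**
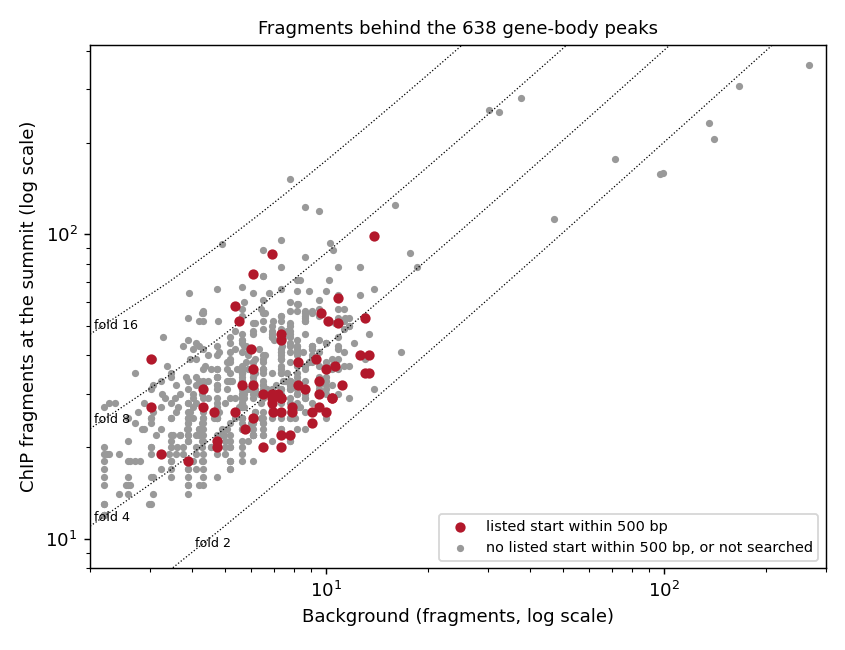
ChIP fragments at the summit (log scale) against background fragments (log scale) for the 638 gene-body peaks, with dotted lines of equal fold. Peaks with a listed start within 500 bp (red) lie mostly to the lower right of the main cloud, at a median fold of 3.73, and the 11 peaks with a background over 20 stand apart at the right.

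A larger share of these peaks than of other peaks away from gene ends lay near a listed start. Starts were taken from a RefSeq table of 32851 start windows in 27025 genes. It gave none on chromosome 18, so 632 of the 638 peaks were searched. Genes elsewhere were missing too, and 14059 of the 17614 protein-coding genes over 4 kb had a listed start. For 132 of the 638 peaks the host gene had none. Such peaks could match only starts of other genes, so the shares below cover listed starts alone. A listed start lay within 500 bp of 62 summits, or 9.81% (7.73 to 12.4), against 24 of 562 (4.27%; 2.89 to 6.28) for deeper gene-body peaks and 30 of 625 (4.80%; 3.38 to 6.77) for intergenic peaks at 2 to 20 kb. The share was 55.2% at gene ends. Of the 62, 54 lay at a start of the gene that held them and 8 at a lncRNA start. Peaks at starts were lower, with a median fold of 3.73 (range 2.47 to 11.0) against 4.71 for the 570 with no start listed within 500 bp. Their median background was higher, 7.35 against 5.88. The part of that background in the lower folds was not tested.

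The starts can also be read from the side of the annotation. Sequence that meets the rule held 3360 listed starts, of which 76 (2.26%; 1.81 to 2.82) had a summit within 500 bp. Deeper gene bodies had 27 of 2214 (1.22%; 0.839 to 1.77), and the 2 kb around ends 716 of 20149 (3.55%; 3.31 to 3.82). A larger share of the genes that held a peak of the set had several starts: 128 of 425 with any listed start (30.1%; 26.0 to 34.6) had more than 1, against 2659 of 14059 genes over 4 kb (18.9%; 18.3 to 19.6). Host genes are longer than other genes, and the part of length in this was not tested.

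Examples of peaks at starts follow, from 8 genes picked after their values were seen. Hdac7, a class II histone deacetylase, had 4.22-fold at 118 bp from a start, and Arid1a, a subunit of the BAF remodelling complex, 4.14-fold at 416 bp. Phip, a bromodomain protein, had 4.68-fold at 4 bp from a start, and Nfyc, a subunit of the CCAAT-binding factor NF-Y, 3.03-fold at 236 bp. Mdm4, a repressor of p53, had 4.71-fold at 90 bp, and Igf1, the growth factor, 6.95-fold at 366 bp. Cd63, a tetraspanin of endosomes, had 5.33-fold at 441 bp and Lmna, which encodes lamins A and C, 4.78-fold at 341 bp.

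The start windows that held a summit were mostly rich in CpG. A window spans 250 bases before to 50 after a start, and 31 windows of 28 genes held a summit of the set, some of them overlapping. Their median content of G and C was 71.3%, and 23 (74.2%; 56.8 to 86.3) were CpG-rich, meaning over 50% G and C with a ratio of observed to expected CpG above 0.6. The share was 89.6% among the 337 windows with a gene-end summit and 33.3% among all windows. SP/KLF letters, GGGCGG, occurred in 22 of the 31 (71.0%; 53.4 to 83.9), against 71.8% at gene ends and 35.7% of all windows. TEAD letters, GGAATG, occurred in 7 (22.6%; 11.4 to 39.8), against 8.61% and 14.7%, and ETS letters, CCGGAAG, in 2 (6.45%; 1.79 to 20.7), against 27.0% and 8.86%. The TEAD and ETS intervals include the share of all windows. The 31 windows rest on 27 summits, so they are not independent and the intervals are too narrow.

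The remaining motifs were rare in these windows. The E-box CACGTG and the NFY letters CCAATCA occurred in 2 windows each (6.45%; 1.79 to 20.7). Their shares were 7.15% and 7.82% of all windows, and 14.2% and 6.53% at gene ends. AP-1 TGACTCA, RUNX TGTGGTT and SOX CCATTGT occurred in 1 each (3.23%), against 5.20%, 5.27% and 3.66% of all windows. At gene ends these 3 had 6.23%, 2.67% and 1.19%. No window held CRE TGACGTCA (1.79% of all windows), the NFI motif (0.0365%), C/EBP TTGCGCAA (0.183%), the MARE (0.155%), the steroid receptor motif (0.475%), the heat shock motif (0.603%), the Pol III B box (0.122%), HIF TACGTG (3.23%) or the CArG box (1.63%). Of these motifs, gene-end windows held CRE in 4.75%, HIF in 5.34%, heat shock in 2.08% and each of the others in at most 0.890%. Taking 3 counts as the limit that a count of 0 allows, 0 of 31 allows a share of up to 9.68%. Both strands were searched, and the MARE contains the AP-1 letters. A match is a run of letters, not a bound site.

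Within their genes the peaks of the whole set leaned to the start, though not clearly in every alternative. Strand was known for the host of 506 peaks, and 285 of these (56.3%; 52.0 to 60.6) lay nearer the start than the finish of the host, where 50% of the eligible sequence lay. Density was 1.93 peaks per Mb on the start side and 1.49 on the finish side. The difference sat close to the gene ends. At 2 to 5 kb the start side had 2.66 peaks per Mb (97 peaks) and the finish side 1.33 (48), whereas at 15 to 20 kb they had 1.26 (33) and 1.72 (45). Another 12 peaks lay over 20 kb from both ends of their host. Without the peaks at listed starts, an alternative chosen after seeing the data, 234 of 445 (52.6%; 47.9 to 57.2) lay on the start side, with 1.97 peaks per Mb at 2 to 5 kb against 1.30 on the finish side.

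**Figure D3:**
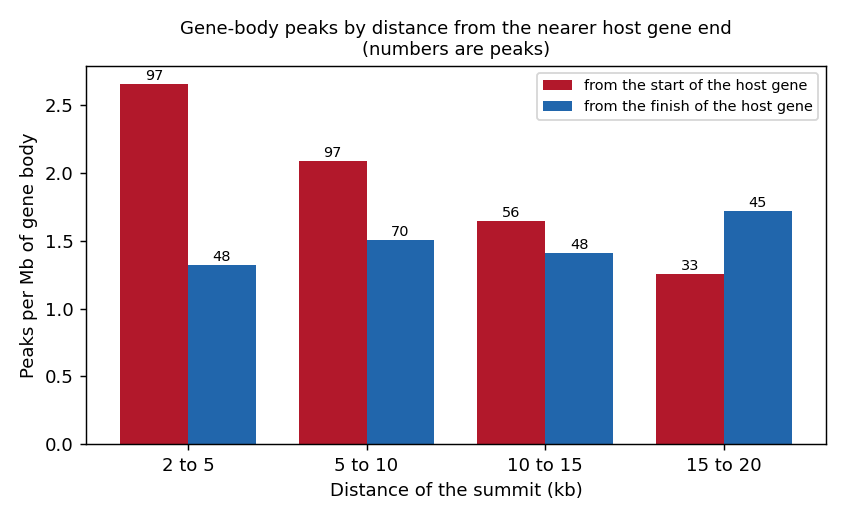
Peaks per Mb of eligible gene body by distance of the summit from the nearer end of the host gene, for the start side and the finish side, with the number of peaks at each point. The start side has 2.66 peaks per Mb at 2 to 5 kb and 1.26 at 15 to 20 kb, and the finish side stays between 1.33 and 1.72.

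Many peaks of the set had another peak close by. Another peak of the list lay within 20 kb of 278 of them (43.6%; 39.8 to 47.4), against 29.6% (26.0 to 33.4) for deeper gene-body peaks and 53.0% (49.1 to 56.8) for intergenic peaks at 2 to 20 kb. In 229 (35.9%) the other summit lay inside the same gene. Peaks with such a neighbour had a median fold of 4.83 and 37 ChIP fragments, against 4.49 and 29 for the 360 without. Giving each peak to the holding gene with the nearest end, 447 genes held 1 peak, 70 held 2 and 16 held 3 or more.

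Among the 16 genes with several peaks, Tgm2, which encodes transglutaminase 2, held 4 peaks over 18022 bp, with folds of 3.93, 4.60, 6.59 and 3.83. Sema3f, a secreted guidance molecule, held 3 within 2239 bp, with 5.04-, 7.21- and 4.08-fold, and Rhof, a small GTPase of filopodia, 3 within 3658 bp, with 4.65-, 4.0- and 8.38-fold. Tns2, a tensin of focal adhesions, had 3.0-, 4.48- and 6.68-fold within 3650 bp. Htra1, a secreted serine protease, had 6.59-, 5.21- and 5.44-fold within 4610 bp. In Sema3f, Rhof and Tns2 the summits were close together, whereas those of Tgm2 were spread over much of the gene.

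In the remaining multi-peak genes, folds ran from 1.34 to 8.76. Tpcn2, a cation channel of lysosomes, had 5.56-, 3.14- and 8.76-fold, and Ip6k3, an inositol hexakisphosphate kinase, 3.92-, 6.69- and 4.33-fold. Hdac7 had 4.37-, 4.22- and 6.34-fold, the middle one at the start named above, and Rara, the retinoic acid receptor alpha, 5.60-, 3.64- and 5.23-fold. Bcl9l, a beta-catenin cofactor, had 3.76-, 5.87- and 4.60-fold, Il34, a ligand of the CSF1 receptor, 4.55-, 5.20- and 4.57-fold, and Plcd3, a phospholipase C, 3.33-, 4.03- and 2.86-fold. Morn1 reached 6.06-fold, Tjap1, a tight junction protein, 5.51-fold, and Bicral, a subunit of a BAF complex, 5.03-fold at their highest. Tmem267, with 5 peaks of 1.34- to 2.46-fold over backgrounds of 47.0 to 268, stood apart from the other 15 in both measures.

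**Figure D4:**
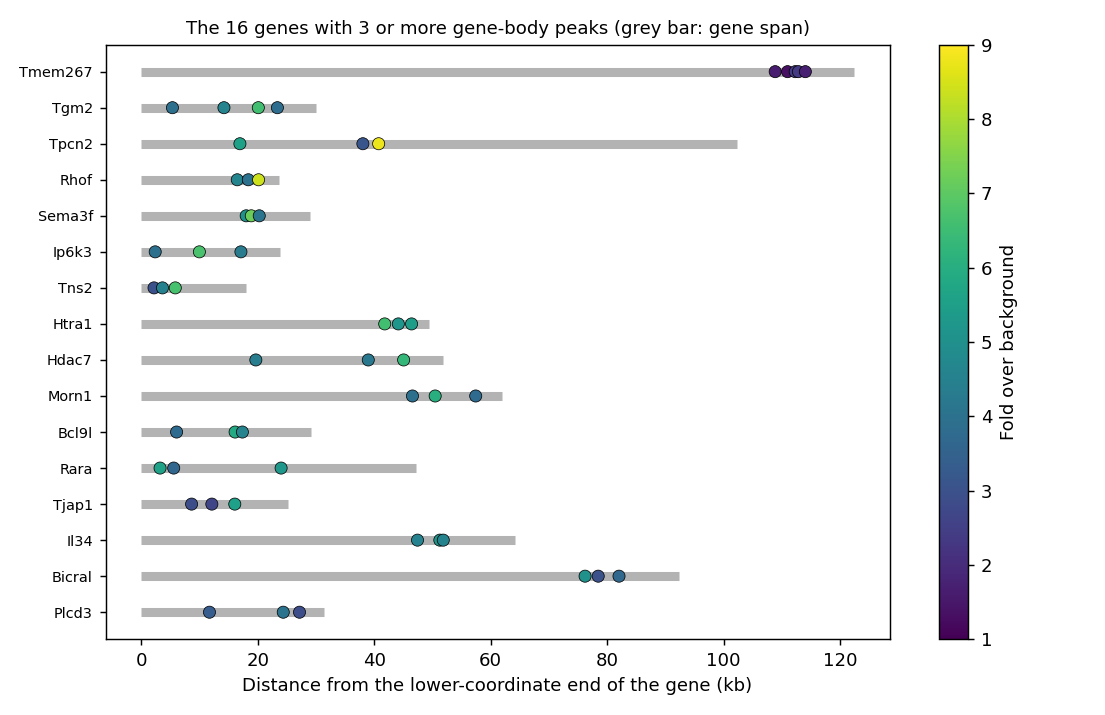
Position of each summit along the 16 genes with 3 or more gene-body peaks, as distance in kb from the end with the lower coordinate, with the gene span in grey and the fold as colour. Summits of Sema3f, Rhof, Tns2 and Tmem267 lie close together, and those of Tgm2 span 18022 bp.

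Counting every gene that holds a summit, 542 of the 17614 protein-coding genes over 4 kb (3.08%) hosted a peak of the set. Only genes over 4 kb have room for such a summit. Given to 1 gene each, the peaks had 533 hosts (3.03%). Hosts were long, with a median of 43.9 kb against 24.3 kb for all genes over 4 kb. A peak within 2 kb of an own end was found in 71 of the 542 hosts (13.1%; 10.5 to 16.2), against 925 of the 17072 other genes (5.42%; 5.09 to 5.77), where 5.65% of all genes over 4 kb had one. The gap was present at every length: 20.2% of hosts against 5.70% of other genes at 4 to 20 kb, 13.1% against 5.26% at 20 to 50 kb, 9.56% against 5.94% at 50 to 100 kb and 10.9% against 4.30% above 100 kb. At 50 to 100 kb the intervals of both shares overlapped. A further peak over 20 kb inside was present in 54 hosts (9.96%), and 420 hosts (77.5%) had neither.

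Genes of the Hippo pathway and its YAP/TEAD targets had the highest share of hosts among 23 gene lists. The lists held 1214 genes, of which 93 hosted a peak, and each share is read against the 3.08% of all genes over 4 kb. In the Hippo list 10 of 47 genes hosted a peak (21.3%; 12 to 34.9), or 8.19 peaks per Mb of eligible sequence against 1.72 over all genes, at a median gene length of 62.4 kb. Besides Amotl2 and Axl, these included Asap1, an ARF GTPase-activating protein, with 7.86-fold (6.33 to 9.66; 89 fragments over 10.4). Ajuba, a LIM protein that inhibits the LATS kinases, had 7.71-fold (5.73 to 10.2; 48 over 5.35). Amotl2, Asap1 and Ajuba also had a peak at an own end, at 2.42-, 4.78- and 3.56-fold, lower in each than the peak inside the gene.

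Circadian clock genes came next by share, with lower folds. They hosted peaks in 5 of 24 genes (20.8%; 9.24 to 40.5) with a median of 3.87 for the highest fold per host, against 4.83 over all hosts. Arntl, which encodes the activator BMAL1, had 5.82-fold (4.10 to 8.03), and Nr1d1, its repressor REV-ERB alpha, 4.31-fold (3.04 to 5.95) at 2265 bp from its end. The clock output factors Tef and Hlf had 3.87- and 3.64-fold, the Tef summit being 391 bp from a listed start. Nr1d1 had a higher peak at its own end, 6.23-fold. Nuclear receptors hosted peaks in 5 of 38 genes (13.2%; 5.75 to 27.3), with Rara at 5.60-fold, Thra, the thyroid hormone receptor alpha, at 4.74-fold, Nr2f2, which encodes COUP-TFII, at 4.70-fold, and Nr1d1, which is in both lists.

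Genes that shape contacts with other cells and the matrix were also frequent hosts. Axon guidance genes hosted peaks in 10 of 66 (15.2%; 8.44 to 25.7), at a median length of 107 kb. Beside Ephb3 and Sema3f stood Ntn1, which encodes netrin-1, with 6.35-fold at a miRNA gene, Mir6406, and Plxna1, a semaphorin receptor, with 5.87- and 4.37-fold. Integrin and focal adhesion genes hosted peaks in 8 of 59 (13.6%; 7.03 to 24.5), led by Bcar1, the adaptor p130Cas, with 8.81-fold (7.05 to 10.9; 84 fragments over 8.65). Cavin1, a coat protein of caveolae, had 6.95-fold, Tns2 6.68-fold and Tns3 5.51-fold. None of these 8 genes had a peak at an own end, where 13.1% of all hosts had one, so 8 genes are too few to set them apart.

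Matrix genes hosted peaks in 9 of 73 (12.3%; 6.62 to 21.8), with a median of 6.19 for the highest fold per host. Lamb1, a laminin subunit, had 8.07-fold (5.69 to 11.1), Hspg2, which encodes perlecan, 7.25-fold (5.37 to 9.59), Loxl1, a lysyl oxidase, 6.80-fold (4.98 to 9.07), and Timp2, an inhibitor of metalloproteinases, 6.69-fold (5.31 to 8.33). The 4 intervals overlap. TGF-beta and BMP genes hosted peaks in 6 of 53 (11.3%; 5.29 to 22.6), with Tgfbr3, the co-receptor betaglycan, at 9.22-fold (6.73 to 12.3), Ltbp3, which anchors latent TGF-beta, at 8.78- and 4.11-fold, Ski, a SMAD repressor, at 7.08-fold, and Fstl1, a follistatin-like protein, at 6.59-fold. The median of the highest fold per host was 6.84 in this list, the highest among lists with 3 or more hosts.

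Growth factors and receptor tyrosine kinases hosted peaks in 7 of 69 genes (10.1%; 5.0 to 19.5). Axl led them, followed by Grb10, an adaptor of the insulin receptor, with 7.23-fold (4.78 to 10.5), Epha2, an ephrin receptor, with 5.73-fold, and Met, the receptor of hepatocyte growth factor, with 4.73-fold from 16 fragments over 2.59. Notch signalling had 3 of 30 (10%; 3.46 to 25.6), with Rbpj, its DNA-binding factor, at 5.59-fold, the coactivator Maml3 at 4.99-fold and Lfng, a glycosyltransferase of Notch, at 4.02-fold. Wnt signalling had 3 of 60 (5%; 1.71 to 13.7), with Dkk3 at 6.5-fold, Ctnnbip1, an inhibitor of beta-catenin, at 5.94-fold and the corepressor Tle3 at 3.27-fold. The Wnt interval includes the share of all genes, and that of the other 2 lists lies above it. The intervals of those 2 lists include the share of genes of similar length, given below.

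Genes of chromatin enzymes and the cytoskeleton stood lower. Chromatin remodellers and coactivators hosted peaks in 6 of 70 (8.57%; 3.99 to 17.5), among them Brd3, a BET bromodomain protein, with 7.05-fold, Hdac7, and Hdac5 with 5.84-fold. SRF targets and actin genes had 4 of 50 (8%; 3.15 to 18.8), which were Synpo, Csrp1 with 5.16-fold, the caldesmon gene Cald1 with 4.79-fold and the tropomyosin gene Tpm1 with 3.34-fold. Lipid and sterol genes had 4 of 60 (6.67%; 2.62 to 15.9), among them Angptl4, an inhibitor of lipoprotein lipase, with 5.90-fold, the lipase gene Lipe with 4.50-fold and Cpt1a, which moves fatty acids into mitochondria, with 3.91-fold. Angptl4 had a higher peak at its own end, 9.35-fold. The interval of the lipid list includes the share of all genes.

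The remaining lists had intervals that include 3.08%. Immediate early and AP-1 genes hosted peaks in 2 of 31 (6.45%; 1.79 to 20.7), at a median length of 9.25 kb. Neural progenitor and glial markers did so in 2 of 35 (5.71%) and spliceosome genes in 2 of 48 (4.17%). Hypoxia and glycolysis genes had 2 of 49 (4.08%) and MAP kinase genes 2 of 54 (3.70%). Autophagy genes had 1 of 50 (2%), cell cycle genes 1 of 52 (1.92%) and synapse and ion channel genes 1 of 71 (1.41%; 0.249 to 7.56), although the last had the longest genes, with a median of 213 kb. Among 19 genes of the H3K4 methyltransferase complexes none hosted a peak, and 0 of 19 allows a share of up to 15.8% by the same limit of 3 counts (Wilson upper bound 16.8%). Kmt2d itself had a 4.62-fold peak (3.17 to 6.54) 1882 bp from its end, short of the lower limit, and Paxip1, which encodes PTIP, a 2.88-fold peak at its end. Peaks per Mb of eligible sequence exceeded the value over all genes in 17 of the 23 lists. Shares exceeded that of all genes in 19, and the lower bound did so in 11. The lists were chosen with earlier results of these data known, so these counts describe the lists and are no test. Of those 11, nuclear receptors and Notch signalling had no host left when peaks below the upper quartile of fold in the whole list were dropped. The lists share genes, namely Axl, Nr1d1, Epha2 and Arhgef17 among hosts, and list genes were not matched in length to other genes. By length, 1.30% of genes of 4 to 20 kb hosted a peak, 4.06% at 20 to 50 kb, 5.42% at 50 to 100 kb and 4.16% above 100 kb. The lower bounds of the growth factor (5.0%), Notch (3.46%), chromatin (3.99%) and SRF (3.15%) lists lie below the share at their median length. Those of the others of the 11 lie above it, though that of the TGF-beta list (5.29%, median length 46.2 kb) lies below the 5.42% at 50 to 100 kb. Outside the 11, the lower bound of the immediate early list (1.79%) lies above the 1.30% at its median length, from 2 hosts only.

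**Figure D5:**
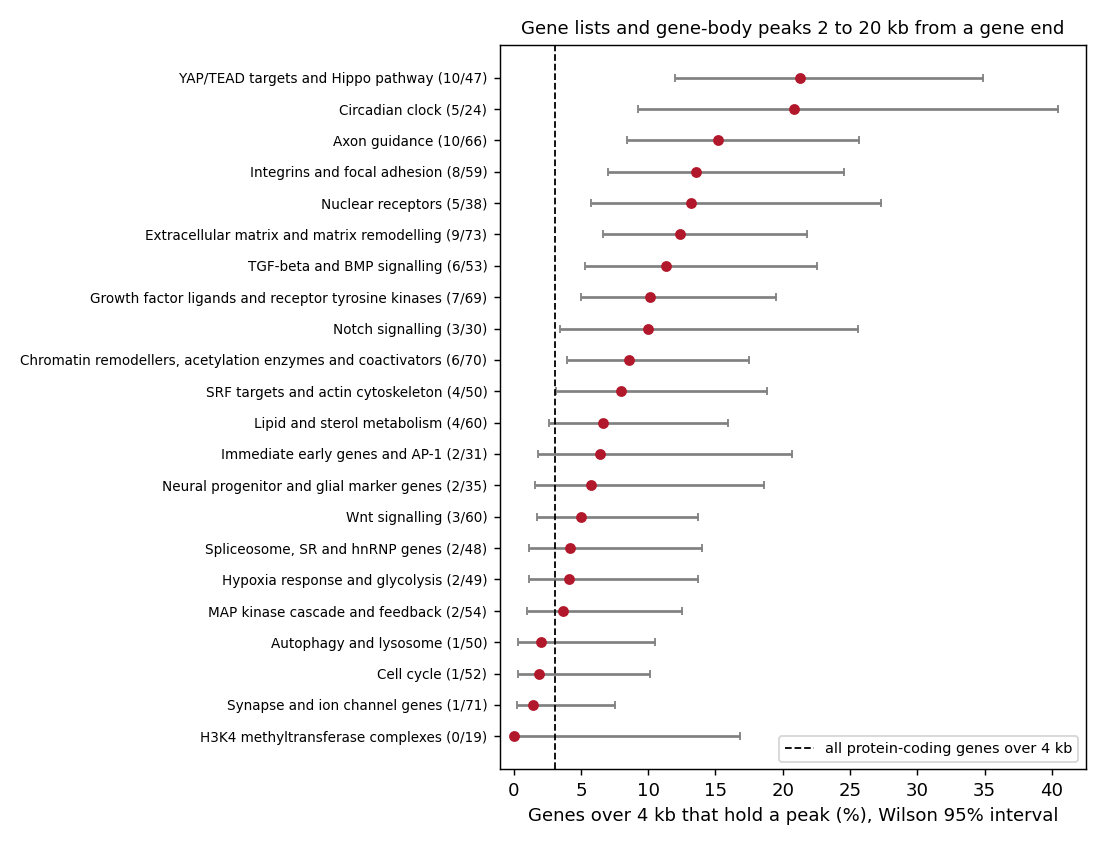
Percentage of genes over 4 kb in each of 22 of the 23 lists that host a gene-body peak 2 to 20 kb from a gene end, with Wilson 95% intervals and, in brackets, hosts over genes. The dashed line is the share of all protein-coding genes over 4 kb, 3.08%; the Hippo list stands highest at 21.3% and the H3K4 methyltransferase list at 0.

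Few summits of the set lay at small RNA genes. A tRNA gene lay within 500 bp of 3 summits (0.470%; 0.160 to 1.37), against 58 of 640 intergenic summits at 2 to 20 kb (9.06%; 7.08 to 11.5). Of the 17 tRNA genes in the sequence of the rule 3 had a summit (17.6%; 6.19 to 41.0), against 78 of 181 (43.1%; 36.1 to 50.4) in intergenic sequence at that distance. The 3 were high peaks. Trim7, which encodes a ubiquitin ligase, held 2 of them, on n-TAtgc9 with 12-fold (9.68 to 14.8; 89 fragments over 6.49) and on n-TKctt10 with 9.22-fold, and the predicted gene Gm38523 held the third, on n-TGgcc2, with 8.12-fold. Another 5 summits lay near other small RNA genes, among them Dnm2, which encodes dynamin 2, with 8.44-fold 325 bp from Mir199a-1. A lncRNA gene lay within 500 bp of 43 summits (6.74%; 5.04 to 8.96), against 23.4% (20.3 to 26.9) of intergenic summits at 2 to 20 kb. For gene-body peaks over 20 kb from an end the share was 9.04% (6.96 to 11.7), an interval that overlaps that of the set. Small RNA genes, tRNA genes included, lay within 500 bp of 1.25% of the set (0.637 to 2.45). The share was 0.870% (0.372 to 2.02) for those deeper peaks, again with overlapping intervals. Low shares were thus seen in gene bodies at either distance.

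The peaks were spread unevenly over chromosomes. Density was highest on chromosomes 15, with 3.20 per eligible Mb (44 peaks), and 11, with 3.08 (74 peaks). It was lowest on X, with 0.260 (4 peaks), and 18, with 0.395 (6 peaks), and Y had none of its 9 peaks in the set. The median background moved with density at these extremes, at 7.84 fragments on chromosome 15 and 7.35 on 11, against 2.87 on 18 and 4.54 on X. The part of background or of copy number in the density was not tested. Folds followed another order, with a median of 4.25 on chromosome 15, 4.30 on 11, 7.66 on 18 and 4.09 on X. On chromosome 18 the 6 peaks were in Synpo, with 2, and in Ino80c, Fam13b, Slc6a7 and Lvrn, from 3.68- to 9.96-fold, and the last 4 genes were named after their values were seen.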

How the data were processed

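KMT2D ChIP-seq was compared with input in wild-type HT22 cells (1 library each). Per the submitters' processing notes, Bowtie2, Picard, MACS2 and mm10 were used, with versions and settings not given in the sources used here. One peak list was deposited by the authors, with a fold or ratio of ChIP to background, −log10 p-values, −log10 q-values, a score (not used) and a summit offset. The lowest deposited −log10 q was 1.32. Total depth is not given.

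ChIP pileup n and background b were solved from the deposited fold, (n + 1)/(b + 1), and the Poisson p-value, within 0.001 of −log10 p, for 3690 of 3738 peaks; the procedure was tested on simulated data and recovered 100% of 2000 pileups. Poisson intervals of a fold hold the background fixed. Genes came from RefSeq GRCm38.p6: 49595 of 49997 genes on main sequences, 21774 protein-coding, all 1240 list entries matched. Strand and starts came from the RefSeq start table. No genome sequence or exon annotation was used here, so motifs at summits and exon or intron positions, which were planned, gave way to start windows. The members and gene lists were chosen with earlier results of these data known. Named genes were the 20 highest folds, the 10 highest −log10 q, up to 4 hosts of highest fold in each list with 3 or more hosts, genes with 3 or more peaks, the 2 peaks on each side of each limit and H3K4 methyltransferase hosts; others are named after their values were seen. A few of these genes and 1 gene list are not reported here. Python 3.11.15, numpy 2.4.6, scipy 1.17.1, pandas 2.3.3 and matplotlib 3.10.9 were used. Alternatives were stricter peak thresholds, other distance windows, other gene ends and genes, and peaks left out.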

Additional observations from a re-analysis of the deposited data

How the results depend on the processing

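No paired analysis was possible because there was 1 ChIP and 1 input library. Keeping only peaks with −log10 q at or above the median of the whole list left 352 peaks with a median fold of 5.74 (1.0 times that of other peaks), 313 hosts (1.78% of genes), an own-end peak in 9.58% of hosts, another peak within 20 kb of 35.2%, a listed start at 6.34% and SP/KLF letters in 50% of 14 windows. Keeping only folds at or above the 75th percentile left 175 peaks with a median of 6.95 (0.979 times), 169 hosts (0.959%), 5.92% with an own-end peak, 14.9% with another peak, 3.43% at a small RNA gene, 5.29% at a listed start and SP/KLF letters in 0 of 3 windows (0%). These limits thin every kind of peak, so shares of neighbours and own ends fall by construction. With a lower limit of 1 kb the ratio of medians was 1.01 (1.05 as reported), hosts were 3.45%, starts 13.4% and own ends 28.3%, since summits at 1 to 2 kb then count for both. With 5 kb, hosts were 2.78%, own ends 9.82% and starts 7.64%. Leaving out peaks at small RNA genes set that share to 0 by construction. Of the other values for the whole set, 95 stayed within the interval reported or within 1.5 times for a count, as did 209 of 230 for single lists. The Hippo, axon guidance, focal adhesion, matrix, TGF-beta and clock lists stayed above all genes in all 11 settings, the main one included. So did the growth factor, chromatin, SRF, lipid, Wnt and immediate early lists, some with intervals that include the share of all genes. At the 75th percentile of fold the nuclear receptor (0 of 38) and Notch (0 of 30) lists had no host (0%), and the clock list had 1 of 24 (4.17%). The planned 100 bp windows around summits were not run. Median pileups of 32 fragments leave single folds with wide intervals, and no value here has a replicate.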
